A study of Rattus norvegicus with 9 samples.

Results

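The high-affinity IgE receptor and the inhibitory IgG receptor of rat mast cell line cells were followed through 4 genes: Fcer1a, Ms4a2 and Fcer1g, which encode the alpha, beta and gamma subunits of the IgE receptor (FcεRI), and Fcgr2b, which encodes the inhibitory receptor FcγRIIB. They were chosen for their function and matched by gene symbol, and they are 4 of the 18006 genes with a value. All 4 had a value in each of the 9 samples and passed the filter on low values in every comparison. RNA-seq was done on RBL-2H3 (RBLs), a rat basophilic leukemia line widely used as a model of mast cells (MCs), in 3 groups of 3 samples. Ctrl was labelled untreated, although its protocol field describes the same sensitization and stimulation as for the other samples, so whether Ctrl received IgE is not settled. The DNP group (IgE/DNP) was sensitized for 12 h with anti-DNP IgE at 50 ng/mL and then given DNP-HSA, the antigen that crosslinks this IgE, at 100 ng/mL for 4 h. The PF group received the same IgE and antigen after 1 h of pretreatment with an agent named only PF, which the labels and the study's methods do not identify. The treatment labels of the PF samples give 4 h, 5 h and 6 h of stimulation for replicates 1, 2 and 3, whereas the protocol field gives 4 h. All 9 samples came from 1 cell line, and the labels do not say whether replicates were separate cultures, so p-values measure the spread between these samples, which may be technical.

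FcεRI is assembled in the endoplasmic reticulum from an alpha chain that binds the Fc part of IgE, a beta chain that crosses the membrane several times and amplifies the signal, and a pair of gamma chains that carry the signal. The cytoplasmic tails of the beta and gamma chains hold activating tyrosine motifs (ITAMs), which the kinases Lyn and Syk use once antigen crosslinks receptor-bound IgE. FcγRIIB carries an inhibitory tyrosine motif (ITIM) and, when co-engaged with FcεRI, recruits the lipid phosphatase SHIP1 and dampens degranulation.

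The sequence before the annotated start of Fcer1a is shown because the transcription factors described for this gene, GATA factors and Ets factors, were themselves measured here. It covers 250 bases of the minus strand (RefSeq, build GRCr8, chr13:88224680-88224929), and capitals mark GATA and GGAA, the letters at the core of GATA and Ets sites, read on either strand:
Fcer1a: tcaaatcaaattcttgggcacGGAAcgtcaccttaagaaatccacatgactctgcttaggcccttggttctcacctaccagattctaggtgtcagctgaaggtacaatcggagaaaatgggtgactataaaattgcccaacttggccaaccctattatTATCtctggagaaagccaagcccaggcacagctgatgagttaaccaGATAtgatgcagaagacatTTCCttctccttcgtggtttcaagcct
GATA occurred 2 times, at -92 (as TATC) and at -46 from the start, and 55.9% of 33469 RefSeq promoter windows of this length hold it. GGAA occurred 2 times, at -229 and, as TTCC, at -27, and 93.2% of windows hold it. CANNTG, the E-box, which reads the same on both strands, occurred 3 times (65.5% of windows), TATAAA once, at -125 (12.9% of windows), and TGANTCA, the AP-1 letters, did not occur (6.3% of windows hold it). None of the printed matches overlaps another of these motifs. A match in letters is not evidence of binding. The RefSeq table held 1 of the 4 genes.

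Values are FPKM (fragment counts scaled to transcript length and sequencing depth), measured over a bulk sample, so that fewer cells expressing a gene and less RNA per cell cannot be told apart. FPKM sums ran from 573023 to 591539 in Ctrl and DNP samples and from 610206 to 630069 in PF samples, which matters for shifts as small as those of these genes. Of 13 mast cell and basophil markers, 10 had a value and all 10 were above 1 FPKM, with a summed level of 3939 to 4192 FPKM per sample, most of it from Srgn, the granule proteoglycan serglycin (group means 2780 to 2914 FPKM). Some of the other markers were not level across the groups, whereas Cma1, Mcpt1 and Il1rl1 had a limma adjusted p above 0.05 in every comparison. In DNP against Ctrl 1 of the 10 rose and 4 fell (median log2 fold change -0.15, against -0.01 for all genes tested), in PF against DNP 1 rose and 2 fell (median -0.03 against -0.04), and in PF against Ctrl none rose and 5 fell (median -0.26 against -0.05). Among all genes tested the shares that rose and fell were 14.7% and 14.4%, 18.1% and 30.7%, and 23.1% and 34.6% in that order. The stem cell factor receptor Kit and the proteases Cpa3, Mcpt2 and Mcpt8 fell in DNP against Ctrl by 0.25, 0.23, 0.64 and 0.87 (limma adjusted p = 0.0012, 0.00747, 1.88e-05 and 2.68e-04), and Hdc, the histamine-forming enzyme, rose by 0.15 (0.0188). The same 4 genes and Gata2 fell in PF against Ctrl, by 0.28 (Cpa3) to 1.23 (Mcpt8). Scaling to the mean sum and median-ratio scaling left the counts of DNP against Ctrl as they were, while in PF against DNP they gave 0 that rose and 4 that fell, and 3 that rose and 1 that fell. The mast cell protease genes Tpsab1, Tpsb2 and Prss34 had no value. The summed levels of 5 fibroblast markers (0.35 to 0.63 FPKM) and 7 monocyte and macrophage markers (1.52 to 2.62 FPKM) were near 0, while 5 T cell markers reached 9.26 to 12.1 FPKM, mostly from Cd3e. Of the B cell markers, Cd22, an inhibitory lectin receptor, had group means of 154.0 to 183 FPKM, and Pax5, the B cell lineage factor, was below 1 FPKM.

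Fcer1g was the most abundant of the 4 transcripts in every sample. It read 702, 729 and 717 FPKM in Ctrl replicates 1 to 3, 638, 648 and 631 FPKM in DNP, and 824, 813 and 786 FPKM in PF. The groups did not overlap in any comparison, with DNP lowest and PF highest. Group means were 716 ± 13.5, 639 ± 8.20 and 808 ± 20 FPKM (SD, n = 3 each). Among 18006 genes, the group mean of Fcer1g ranked 129 in Ctrl, 143 in DNP and 129 in PF.

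Fcer1a, the IgE-binding chain, read 454, 439 and 432 FPKM in Ctrl, 432, 410 and 429 FPKM in DNP, and 463, 503 and 479 FPKM in PF. DNP lay just under Ctrl, with the highest DNP sample (431.54 FPKM) and the lowest Ctrl sample (431.84 FPKM) nearly equal, and the PF samples were the highest. The means were 442 ± 11.4, 424 ± 11.9 and 482 ± 20.1 FPKM (SD, n = 3).

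Ms4a2, the beta chain, read 442, 417 and 435 FPKM in Ctrl, 456, 458 and 468 FPKM in DNP, and 469, 474 and 486 FPKM in PF. Its order differed from that of the other 2 subunits, with Ctrl lowest and DNP between Ctrl and PF. The gap between the highest DNP sample (468.32 FPKM) and the lowest PF sample (468.88 FPKM) was small. Means were 431 ± 12.6, 461 ± 6.78 and 476 ± 8.63 FPKM (SD, n = 3).

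Fcgr2b, the inhibitory receptor, read 175, 180 and 171 FPKM in Ctrl, 175, 180 and 175 FPKM in DNP, and 173, 169 and 163 FPKM in PF. Ctrl overlapped both other groups, and all 3 PF samples lay below the 3 DNP samples. Means were 175 ± 4.17, 177 ± 3.14 and 169 ± 5.29 FPKM (SD, n = 3), and the mean ranked 493 in Ctrl and DNP and 551 in PF.

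**Figure D1:**
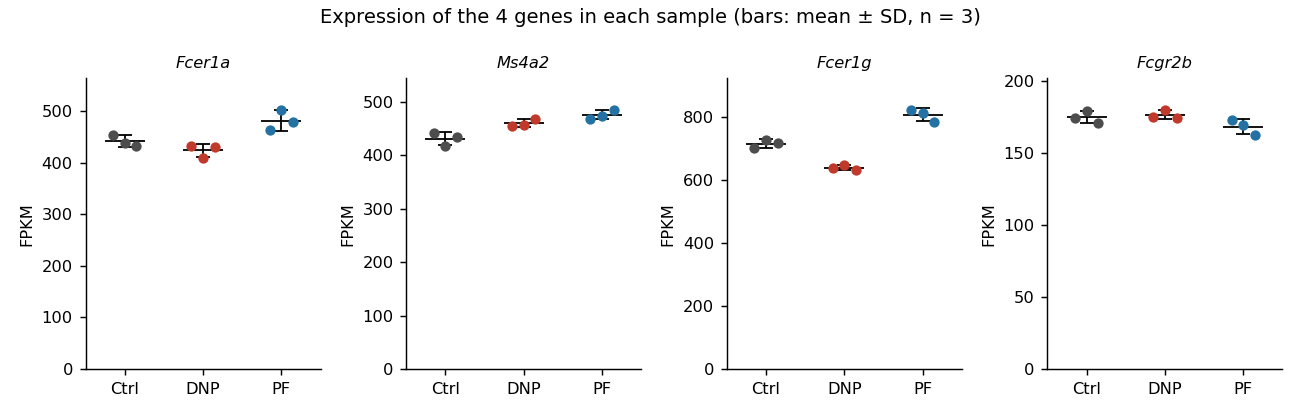
FPKM (y axes, from 0) of Fcer1a, Ms4a2, Fcer1g and Fcgr2b in the Ctrl, DNP and PF groups. Points are the 3 samples of each group and bars are means ± SD; Fcer1g is lowest in DNP (639 FPKM) and highest in PF (808 FPKM), Ms4a2 is lowest in Ctrl (431 FPKM), and Fcgr2b stays between 163 and 180 FPKM.

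In levels per length, Fcer1g was first and Fcgr2b last in each group, and neither overlapped any other of the 4 genes. The middle places changed between groups. Fcer1a and Ms4a2 overlapped in Ctrl (432 to 454 against 417 to 442 FPKM) and in PF (463 to 503 against 469 to 486 FPKM), so these neighbours did not differ beyond their spread there. In DNP every Ms4a2 value (456 to 468 FPKM) was above every Fcer1a value (410 to 432 FPKM). An exact permutation test of the spread of the 3 group means, two-sided over all assignments of the samples, gave p = 0.003571 for each of Fcer1a, Ms4a2 and Fcer1g, which is the smallest p it can give. The same exact permutation test gave p = 0.1036 for Fcgr2b. It was run on the values as deposited only, and the share of all genes reaching its smallest p was not computed. Groups that did not overlap were common, at 45.8% of genes tested in DNP against Ctrl, 57.6% in PF against DNP and 64.8% in PF against Ctrl. The order of Ms4a2 depended on the scaling, with -0.05 on the log2 scale in PF against DNP after scaling to the mean sum.

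The comparison of DNP with Ctrl asks how the receptor's transcripts differed between stimulated cells and cells labelled untreated. Whether Ctrl received IgE is not settled, so the parts of IgE and antigen cannot be told apart. Fcer1g fell by 0.16 on the log2(FPKM + 1) scale (SE 0.03, limma adjusted p = 0.00625), and its mean FPKM differed by -10.7%. In this comparison 4 of the 10 mast cell and basophil markers also fell, by 0.23 to 0.87, where 14.4% of all genes tested fell. The part of such a shift in the value of Fcer1g was not tested. Ms4a2 differed the other way, by 0.09 (SE 0.03, 95% interval 0.02 to 0.17, limma adjusted p = 0.0653), and did not pass at 0.05. For Fcer1a the log2 fold change was -0.06 (95% interval -0.14 to 0.02, limma adjusted p = 0.235), and for Fcgr2b it was 0.01 (95% interval -0.06 to 0.09, limma adjusted p = 0.798). Hence 1 of 4 genes passed, where 29.2% of the 10392 genes tested passed in either direction. The 3 subunits had groups that did not overlap, which held for 45.8% of the genes tested, and the exact permutation test of 3 against 3 samples gave p = 0.1 for each, the smallest it allows. The call for Ms4a2 depended on the fit, with adjusted p = 0.0474 when limma used all 3 groups and 0.0411 after scaling to the mean sum.

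The comparison of PF with DNP asks what the pretreatment changed in stimulated cells. Fcer1g rose by 0.34 (SE 0.03, limma adjusted p = 4.34e-05), 26.4% in mean FPKM, and Fcer1a rose by 0.18 (SE 0.04, limma adjusted p = 0.00416), 13.7% in mean FPKM. Ms4a2 had a log2 fold change of 0.05 (95% interval -0.02 to 0.12, limma adjusted p = 0.210) and Fcgr2b of -0.07 (95% interval -0.14 to 0.0084, limma adjusted p = 0.126). Thus 2 of 4 genes passed, both higher, where 18.1% of the 10329 genes tested passed as higher, 30.7% as lower and 48.8% in either direction. All 4 genes had groups that did not overlap (57.6% of the genes tested), each with an exact permutation p of 0.1.

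The sum of FPKM was higher in PF, and the choice of scaling moved these small differences. Scaling every sample to the mean sum shifted the median log2 fold change of all genes tested from -0.04 to -0.13 in PF against DNP, and the share of passing genes that were higher from 37.1% to 16.8%, while median-ratio scaling put them at 0.02 and 51.5%. After scaling to the mean sum, Fcer1a did not pass (0.09, adjusted p = 0.0579), Ms4a2 changed sign (-0.05, adjusted p = 0.209) and Fcgr2b passed as lower (-0.17, adjusted p = 0.00323). After median-ratio scaling Ms4a2 passed as higher (0.11, adjusted p = 0.0167). With PF represented by only the sample labelled 4 h, Fcer1g alone passed (0.37) and Fcer1a did not (0.13, limma adjusted p = 0.0659).

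Against Ctrl, PF samples held more of all 3 IgE receptor transcripts. Fcer1g rose by 0.17 (SE 0.04, limma adjusted p = 0.00373), Ms4a2 by 0.14 (SE 0.04, limma adjusted p = 0.0099) and Fcer1a by 0.12 (SE 0.04, limma adjusted p = 0.0314), or 12.8%, 10.4% and 9.08% in mean FPKM. Fcgr2b had a log2 fold change of -0.06 (95% interval -0.14 to 0.03, limma adjusted p = 0.242). So 3 of 4 genes passed, all higher, where 23.1% of the 10361 genes tested passed as higher, 34.6% as lower and 57.7% in either direction. The 3 subunits had groups that did not overlap, as did 64.8% of the genes tested, and Fcgr2b overlapped (exact permutation p = 0.2).

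The call for Fcer1a in PF against Ctrl was the least stable. It was lost without Ctrl replicate 2 (limma adjusted p = 0.0746), Ctrl replicate 3 (0.0891), PF replicate 2 (0.102) or PF replicate 3 (0.0590), and with no filter on low values (0.0613) or without the trend in the variance (0.0720). After scaling to the mean sum, Fcer1g (0.09, limma adjusted p = 0.0364) still passed, Fcer1a (0.04, 0.363) and Ms4a2 (0.06, 0.219) did not, and Fcgr2b passed as lower (-0.14, 0.0124). The share of passing genes that were higher was 40.0% as deposited, 26.7% after scaling to the mean sum and 51.1% after median-ratio scaling, and with the latter the fold change of Fcgr2b was 0.01. Fcer1g passed in all 3 comparisons under every alternative run, with log2 fold changes of -0.18 to -0.14 in DNP against Ctrl, 0.24 to 0.40 in PF against DNP and 0.09 to 0.24 in PF against Ctrl. The comparisons share samples and so are not independent of each other.

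**Figure D2:**
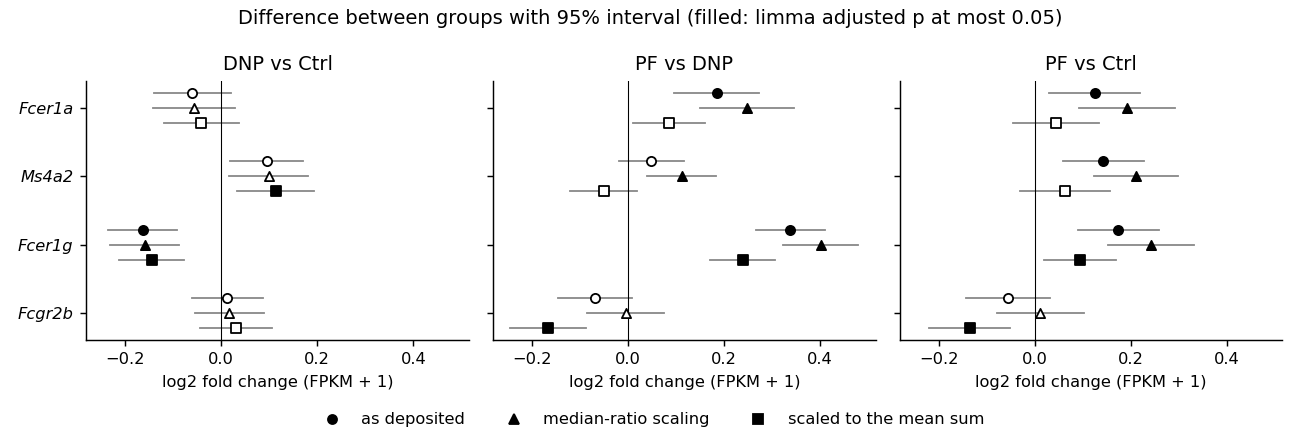
log2 fold change with 95% interval (limma) of the 4 genes in DNP against Ctrl, PF against DNP and PF against Ctrl, as deposited, after median-ratio scaling and after scaling to the mean sum; filled points have an adjusted p of at most 0.05. Fcer1g is filled under every scaling in each comparison, while Ms4a2 in PF against DNP moves from 0.11 (median-ratio) to -0.05 (mean sum).

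Ratios between subunits within a sample do not depend on how samples are scaled to each other. The ratio of gamma to beta transcripts, Fcer1g to Ms4a2, was 1.59, 1.75 and 1.65 in Ctrl, 1.40, 1.41 and 1.35 in DNP, and 1.76, 1.72 and 1.62 in PF. Every DNP sample lay below every Ctrl and PF sample, and Ctrl and PF overlapped. Means were 1.66 ± 0.08, 1.39 ± 0.04 and 1.70 ± 0.07 (SD, n = 3; exact permutation test over the 3 groups, two-sided p = 0.02143). The difference on the log2 scale was -0.26 (SE 0.05) in DNP against Ctrl, 0.29 (SE 0.04) in PF against DNP and 0.03 (SE 0.05) in PF against Ctrl.

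The ratio of alpha to beta transcripts, Fcer1a to Ms4a2, was 1.03, 1.05 and 0.994 in Ctrl, 0.947, 0.896 and 0.917 in DNP, and 0.987, 1.06 and 0.986 in PF. It too was lower in each DNP sample than in any other sample, with means of 1.02 ± 0.03, 0.920 ± 0.03 and 1.01 ± 0.04 (SD, n = 3; exact permutation test over the 3 groups, p = 0.02857). This test was lost without DNP replicate 2 (p = 0.075) and without DNP replicate 3 (p = 0.05357), by the same exact permutation test, and fewer samples also raise the smallest p. On the log2 scale DNP differed from Ctrl by -0.15 (SE 0.03), PF from DNP by 0.14 (SE 0.04) and PF from Ctrl by -0.02 (SE 0.04).

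The ratio of gamma to alpha transcripts, Fcer1g to Fcer1a, was 1.55, 1.66 and 1.66 in Ctrl, 1.48, 1.58 and 1.47 in DNP, and 1.78, 1.62 and 1.64 in PF. DNP overlapped Ctrl but not PF, and the exact permutation test over the 3 groups gave p = 0.06429. The means were 1.62 ± 0.07, 1.51 ± 0.06 and 1.68 ± 0.09 (SD, n = 3), so a difference across the groups was not shown for this pair.

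The inhibitory receptor was set against the IgE-binding chain in the same way. Fcgr2b to Fcer1a was 0.385, 0.409 and 0.397 in Ctrl, 0.406, 0.440 and 0.407 in DNP, and 0.375, 0.337 and 0.340 in PF. The 3 PF samples were the lowest of the 9, while Ctrl and DNP overlapped. Means were 0.397 ± 0.01, 0.418 ± 0.02 and 0.351 ± 0.02 (SD, n = 3; exact permutation test over the 3 groups, p = 0.01071). The difference was -0.25 (SE 0.06) in PF against DNP, -0.18 (SE 0.06) in PF against Ctrl and 0.07 (SE 0.05) in DNP against Ctrl on the log2 scale. The last of these rested in part on DNP replicate 2, without which it was 0.0344, and over single left-out samples it ran from 0.0344 to 0.0951. For all 4 ratios, the exact permutation test of 3 against 3 samples cannot go below p = 0.1, and it reached this where the groups did not overlap. The p-values of the 4 ratios were not adjusted for each other, and the share of other gene pairs whose ratios separate the groups as far was not computed.

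**Figure D3:**
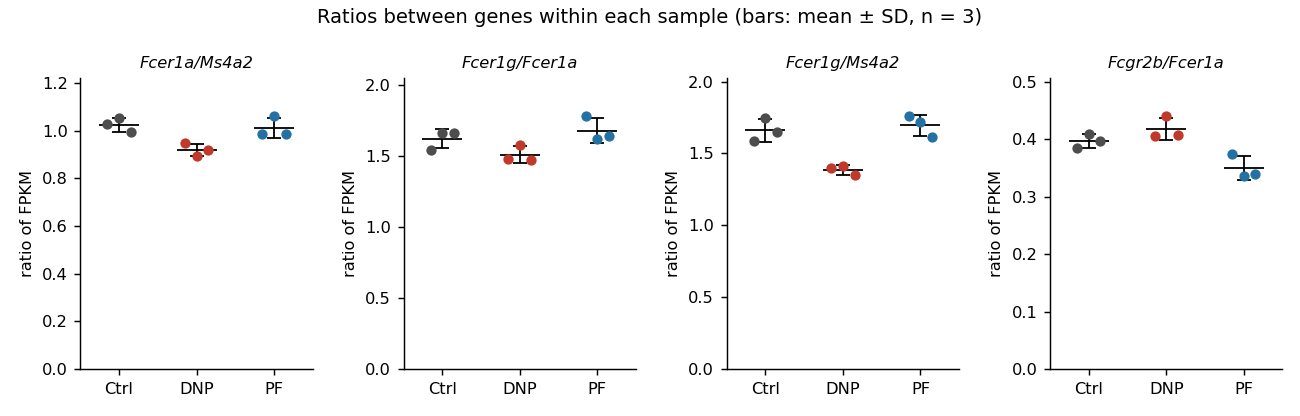
Ratios of FPKM within each sample (y axes, from 0) for Fcer1a to Ms4a2, Fcer1g to Fcer1a, Fcer1g to Ms4a2 and Fcgr2b to Fcer1a; points are the 3 samples of a group and bars are means ± SD. Fcer1g to Ms4a2 has means of 1.66 in Ctrl, 1.39 in DNP and 1.70 in PF, and Fcgr2b to Fcer1a is lowest in PF (0.351).

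Reads of Fcgr2b could be shared with its close relatives, and the counting method may have split them, so the other IgG receptor genes are given beside it. Fcgr2a, which encodes an activating low-affinity IgG receptor in rat (RefSeq lists Fcgr3 as a synonym), read 39.5, 42.6 and 60.4 FPKM in Ctrl, 36.9, 33.5 and 29.9 in DNP, and 26.7, 24.1 and 18.8 in PF. It was highest in Ctrl and lowest in PF, with no overlap between groups. It fell by 0.48 in DNP against Ctrl (limma adjusted p = 0.0389), by 0.52 in PF against DNP (0.00629) and by 0.99 in PF against Ctrl (0.00104) on the log2 scale. LOC498276, a related IgG receptor gene that RefSeq names Fcgr2al1 and that was chosen after its values were seen, read 38.1, 36.6 and 39.8 FPKM in Ctrl, 31.5, 26.2 and 28.2 in DNP, and 14.9, 20.8 and 23.7 in PF. It fell by 0.40 (limma adjusted p = 0.00321), 0.53 (0.0134) and 0.94 (5.27e-04) in the same comparisons. Fcgr2b held a level of 163 to 180 FPKM across those samples. Whether these 3 values are independent of each other was not tested. The transcripts of Fcgr3a, Fcgr1a and the low-affinity IgE receptor Fcer2 were all below 1 FPKM.

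Among the other Fc receptors and antibody-binding proteins listed, 14 of 16 had a value and 5 were tested, of which 3 rose and 2 fell in PF against DNP, 1 rose and 1 fell in DNP against Ctrl, and 2 rose and 2 fell in PF against Ctrl. The list's median log2 fold changes were 0.09, -0.03 and 0.08 in that order, against -0.04, -0.01 and -0.05 for all genes tested. Of all genes tested 18.1% rose and 30.7% fell in PF against DNP, 14.7% rose and 14.4% fell in DNP against Ctrl, and 23.1% rose and 34.6% fell in PF against Ctrl. Lgals3, or galectin-3, a lectin that binds IgE, was at 347 ± 5.58, 437 ± 6.47 and 467 ± 5.98 FPKM (Ctrl, DNP and PF; SD, n = 3), and it rose by 0.33 in DNP against Ctrl (limma adjusted p = 2.38e-04), by 0.09 in PF against DNP (0.0245) and by 0.43 in PF against Ctrl (1.69e-05). Its mean was below those of Fcer1a and Ms4a2 in Ctrl and PF and between them in DNP. Fcrla, an intracellular Fc receptor-like protein, was at 366 ± 13.5, 341 ± 3.002 and 385 ± 14.6 FPKM and rose in PF against DNP by 0.17 (limma adjusted p = 0.00282). Fcmr, the IgM receptor, rose in the same comparison by 0.27 (0.0011), and Trim21, a cytosolic antibody receptor, fell by 0.76 (4.81e-05). After scaling to the mean sum 1 of the 5 rose in PF against DNP.

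**Figure D4:**
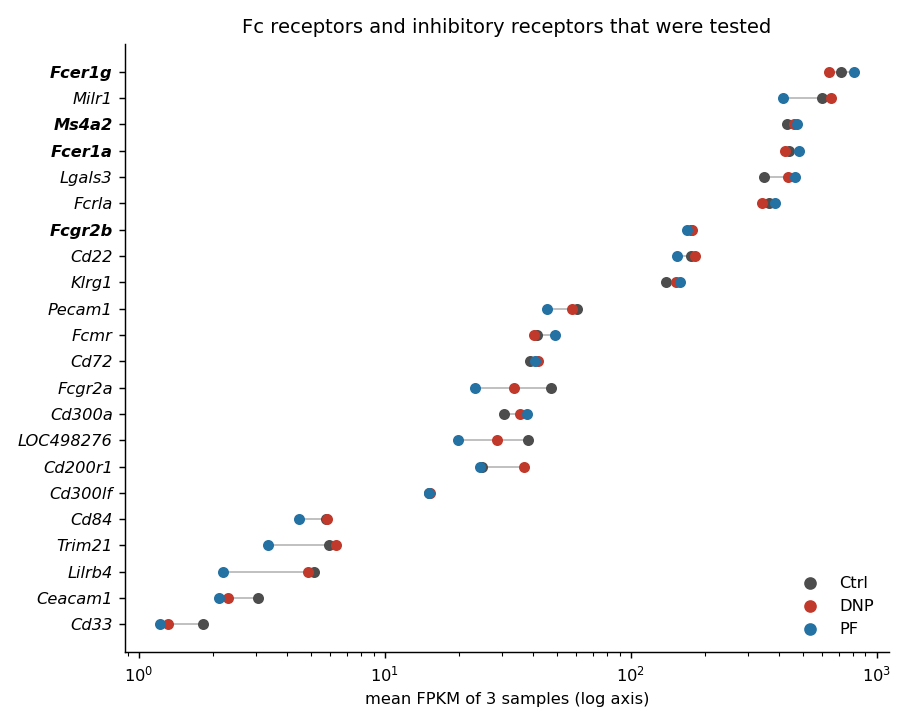
Mean FPKM (x axis, log scale, n = 3 per group) of 22 receptors and antibody-binding proteins in Ctrl, DNP and PF, with the 4 genes of interest in bold. Points are group means, and each line joins the lowest and highest group mean of a gene, so the spread within groups is not drawn. Fcer1g, Fcer1a and Ms4a2 stand near the top beside Milr1, Lgals3 and Fcrla, and Fcgr2b (169 to 177 FPKM) is close to Cd22 and Klrg1.

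The gamma chain also serves receptors other than FcεRI, and related ITAM adaptors can stand beside it. Tyrobp (DAP12) was below 0.1 FPKM in every group mean, and Cd247, the zeta chain, was at 0.857, 0.633 and 1.31 FPKM, so Fcer1g was by far the most abundant ITAM adaptor of this list. Of 14 adaptors and partner receptors with a value, 5 were tested in each comparison (Cd247 was tested only in the comparisons with PF, and Ncr1 only in DNP against Ctrl). Cd247 passed the filter on low values only through the PF samples, where it was highest and still near 1 FPKM. Its rises of 0.50 in PF against DNP and 0.32 in PF against Ctrl were thus favoured by the filter. They are included in the counts and medians that follow. In DNP against Ctrl 2 fell and none rose, in PF against DNP 3 rose and 1 fell, and in PF against Ctrl 2 rose and 1 fell, with list medians of -0.18, 0.14 and 0.05, against -0.01, -0.04 and -0.05 for all genes tested. The shares of all genes tested that rose and fell were 14.7% and 14.4%, 18.1% and 30.7%, and 23.1% and 34.6% in that order. Il3ra, the IL-3 receptor alpha chain, was at 33.6 ± 2.07, 28.7 ± 0.617 and 31.6 ± 1.37 FPKM, and it fell in DNP against Ctrl (-0.22, limma adjusted p = 0.0125) and rose in PF against DNP (0.14, 0.0284). Unlike Fcer1g, it was highest in Ctrl, with a log2 fold change of -0.08 in PF against Ctrl (0.229). Csf2rb, the shared beta chain of the IL-3 and GM-CSF receptors, fell at both steps, from 341 ± 1.75 to 255 ± 6.95 and 143 ± 6.54 FPKM (-0.42, 1.07e-04 and -0.84, 1.06e-06). Hcst (DAP10) rose in PF against DNP (0.22, 0.0278). The higher counts were not held by every setting: after scaling to the mean sum 1 gene of the list rose in PF against DNP and 0 in PF against Ctrl, and with only the PF sample labelled 4 h none rose in either (0 of 4 tested).

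Ms4a2 belongs to the membrane-spanning MS4A family, of which 8 other members had a value and 2 could be tested. Ms4a6b fell from 23.5 ± 0.208 FPKM in DNP to 19.1 ± 0.921 in PF (-0.28, limma adjusted p = 0.00112), and Ms4a6a was at 18.8, 17.1 and 18.8 FPKM in Ctrl, DNP and PF and did not pass as deposited. Both were under 25 FPKM in every group mean, against 431 to 476 FPKM for Ms4a2, and Ms4a3, Ms4a4c, Ms4a6c, Ms4a8, Ms4a12 and Ms4a15 were below 1 FPKM. In DNP against Ctrl neither passed, and in PF against Ctrl Ms4a6b fell (-0.27, limma adjusted p = 0.00326). Among all genes tested 30.7% fell in PF against DNP and 34.6% in PF against Ctrl, and 29.2% passed in either direction in DNP against Ctrl. The medians of the 2 genes were -0.06, -0.08 and -0.13 in DNP against Ctrl, PF against DNP and PF against Ctrl, beside -0.01, -0.04 and -0.05 for all genes tested.

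Fcgr2b is 1 of several inhibitory receptors that restrain mast cells, and 12 others of 22 listed could be tested. Of these, 4 rose and none fell in DNP against Ctrl, none rose and 6 fell in PF against DNP, and 2 rose and 6 fell in PF against Ctrl (medians 0.03, -0.16 and -0.25, against -0.01, -0.04 and -0.05 for all genes tested). Of all genes tested, 14.7% rose and 14.4% fell in DNP against Ctrl and 18.1% rose and 30.7% fell in PF against DNP. The shares in PF against Ctrl were 23.1% that rose and 34.6% that fell. Milr1 (Allergin-1) was more abundant than Fcgr2b, at 600.3, 649.9 and 417 FPKM, and rose by 0.11 in DNP against Ctrl (limma adjusted p = 0.0281) and fell by 0.64 in PF against DNP (1.06e-06). Cd200r1, the receptor for CD200, rose by 0.55 in DNP against Ctrl (6.58e-04) and fell by 0.59 in PF against DNP (4.73e-04), with means of 24.9, 36.9 and 24.3 FPKM. Lilrb4 fell by 0.89 in PF against DNP (8.88e-04), from 4.84 to 2.203 FPKM. Klrg1, known as the mast cell function-associated antigen, was at 139.5, 152.5 and 159 FPKM and rose in DNP against Ctrl (0.13, 0.0216) and in PF against Ctrl (0.18, 0.00211). Cd22 fell by 0.24 in PF against DNP (0.00176). Median-ratio scaling gave 2 that rose and 6 that fell in PF against DNP, and the sample labelled 4 h gave 3 that fell in PF against Ctrl.

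Of the 12 phosphatases and adaptors that inhibitory receptors recruit, 3 rose and 2 fell in DNP against Ctrl, 1 rose and 6 fell in PF against DNP, and 2 rose and 7 fell in PF against Ctrl (medians 0.04, -0.18 and -0.15, against -0.01, -0.04 and -0.05 for all genes tested). The shares that fell among all genes tested were 14.4%, 30.7% and 34.6%, and the shares that rose were 14.7%, 18.1% and 23.1%. Inpp5d, which encodes SHIP1, the phosphatase that FcγRIIB recruits, was at 49.2, 46.2 and 43.4 FPKM, with a log2 fold change of -0.09 in DNP against Ctrl (limma adjusted p = 0.0779), -0.09 in PF against DNP (0.114) and a fall of 0.18 in PF against Ctrl (0.00835). Ptpn6 (SHP-1) rose in DNP against Ctrl (0.26, 0.00394) and again in PF against DNP (0.10, 0.0289), with means of 159, 189.7 and 204 FPKM. Pag1, which anchors the Src kinase inhibitor Csk, rose by 0.67 in DNP against Ctrl (0.00106) and fell by 0.79 in PF against DNP (8.77e-05), and Dok1 fell by 0.69 in PF against DNP (7.57e-06). After scaling to the mean sum 9 of the 12 fell and none rose in PF against DNP, and with only the sample labelled 4 h 4 fell in PF against Ctrl.

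Of 15 kinases and adaptors next to the receptor that were tested, 3 rose and 3 fell in DNP against Ctrl, 1 rose and 10 fell in PF against DNP, and 2 rose and 8 fell in PF against Ctrl (medians -0.04, -0.31 and -0.34, against -0.01, -0.04 and -0.05 for all genes tested). In PF against DNP 18.1% of all genes tested rose and 30.7% fell, and in DNP against Ctrl 29.2% passed in either direction. For PF against Ctrl, 23.1% of all genes tested rose and 34.6% fell. Lyn, the kinase that first phosphorylates the ITAMs, rose by 0.20 in DNP against Ctrl (limma adjusted p = 0.0139) and fell by 0.27 in PF against DNP (9.22e-04). Syk, which binds the phosphorylated gamma chain, was at 8.99, 8.73 and 6.86 FPKM and fell by 0.31 in PF against DNP (0.00539). Prkcd, Gab2 and Lcp2 fell in PF against DNP by 0.78, 0.69 and 0.50 (limma adjusted p = 3.27e-06, 1.18e-04 and 6.62e-06). Plcg2 was the 1 gene of this list that rose in that comparison (0.12, 0.0295), and it did not pass with scaling to the mean sum, where none rose and 11 fell. With only the sample labelled 4 h none rose and 7 fell in PF against DNP.

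Of 15 genes of receptor ubiquitination and endocytosis that were tested, 3 rose and 2 fell in DNP against Ctrl, 2 rose and 5 fell in PF against DNP, and 3 rose and 6 fell in PF against Ctrl (medians -0.02, -0.10 and -0.09, against -0.01, -0.04 and -0.05 for all genes tested). Passing in either direction was found for 29.2%, 48.8% and 57.7% of all genes tested. Rabgef1 (Rabex-5), a Rab5 exchange factor, had the largest change of the list, at 8.997, 24.6 and 8.74 FPKM in Ctrl, DNP and PF, a rise of 1.36 (limma adjusted p = 2.90e-06) and then a fall of 1.39 (1.11e-06). Ubash3b (Sts-1), a phosphatase acting on Syk, fell by 0.81 in PF against DNP (3.87e-06). Cbl, a ubiquitin ligase of the receptor, fell by 0.21 in DNP against Ctrl (0.0228), and Nedd4, another ubiquitin ligase, rose by 0.27 (7.59e-04). After scaling to the mean sum 1 rose and 9 fell in PF against DNP.

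The factors reported at promoters of the receptor genes were compared with the receptor's own levels. Of 14 tested, 3 rose and 2 fell in DNP against Ctrl, none rose and 5 fell in PF against DNP, and 2 rose and 6 fell in PF against Ctrl (medians -0.02, -0.10 and -0.07, against -0.01, -0.04 and -0.05 for all genes tested). The shares passing as lower among all genes tested were 14.4%, 30.7% and 34.6%, and those passing as higher were 14.7%, 18.1% and 23.1%. Gata1 was at 59.3, 56.8 and 34.3 FPKM and fell by 0.71 in PF against DNP (limma adjusted p = 2.70e-06), while Gata2 was at 391, 369.7 and 294 FPKM and fell by 0.33 (2.43e-05). In the same comparison Fcer1a, whose promoter window holds 2 GATA matches, rose by 0.18, or by 0.09 without passing after scaling to the mean sum. Binding was not measured, and a link between the GATA factors and Fcer1a was not tested. Spi1 (PU.1), an Ets factor, was at 79.8, 84.2 and 84.8 FPKM and did not pass in any comparison, whereas Fli1, also an Ets factor, fell from 103 to 44.9 FPKM in PF against DNP (-1.18, 7.57e-08). Runx1 rose by 0.47 in DNP against Ctrl (1.69e-04) and fell by 0.74 in PF against DNP (1.85e-06). Mitf, a regulator of mast cell genes, rose by 0.54 (limma adjusted p = 5.69e-04) and fell by 0.25 (0.00314) in the same comparisons. It was higher in PF than in Ctrl by 0.29 (limma adjusted p = 0.00196). Median-ratio scaling gave 2 that rose in PF against DNP.

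Genes of the endoplasmic reticulum machinery that inserts, glycosylates and folds membrane proteins, receptor chains among them, were also listed. Of 14 tested, 6 rose and none fell in PF against DNP, 9 rose and none fell in PF against Ctrl, and 2 rose and 1 fell in DNP against Ctrl (medians 0.06, 0.13 and 0.02, against -0.04, -0.05 and -0.01 for all genes tested). Among all genes tested, 18.1% rose and 30.7% fell in PF against DNP, and 23.1% rose and 34.6% fell in PF against Ctrl. In DNP against Ctrl 14.7% of all genes tested rose and 14.4% fell. Hspa5 (BiP), the main luminal chaperone, was at 649, 653 and 805.5 FPKM and rose by 0.30 in PF against DNP (limma adjusted p = 1.01e-04). Sec61b and Sec61g, small subunits of the translocon, each rose by 0.31 (8.36e-05 and 5.16e-04). Calr was the most abundant of the list, at 1549, 1577 and 1648 FPKM, and did not pass in any comparison. These counts depended on the scaling: median-ratio scaling gave 9 that rose in PF against DNP and 11 in PF against Ctrl, and scaling to the mean sum gave 3 that rose and 2 that fell in each. With only the sample labelled 4 h, 3 and 4 rose and none fell.

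The genes whose profile over the 9 samples was most like that of each member were found by Pearson's r on log2(FPKM + 1) over 10503 other genes, as a description. All 9 samples share the group structure, and PF samples share a higher FPKM sum. For Fcer1a they were Rnf7 (r = 0.973), Rps15a (0.965), Atox1 (0.958), Prdx1 (0.958) and Lsm3 (0.957), with Prdx1, a peroxiredoxin, at 975, 936 and 1153 FPKM in Ctrl, DNP and PF. For Fcer1g they were Ndufb11 (0.979), Cdk9 (0.979), Rsrp1 (0.974), RT1-DMa (0.972) and Smim26 (0.971), and Ndufb11, a subunit of respiratory complex I, was at 80.5, 73.6 and 89.3 FPKM. Both sets were lowest in DNP and highest in PF, as Fcer1a and Fcer1g were. For Ms4a2 they were Dhx15 (0.981), Hspa4 (0.979), Hnrnpk (0.978), Hnrnpa1 (0.977) and Canx (0.977), and the RNA-binding protein gene Hnrnpa1 had group means of 491, 552.5 and 596 FPKM in Ctrl, DNP and PF. Canx, or calnexin, a chaperone of glycoproteins in the endoplasmic reticulum, was at 311, 331 and 345 FPKM. For Fcgr2b the likeness was weaker, with Ankrd26 (0.918), Cd6 (0.915), Lrfn4 (0.902), Nudt7 (0.901) and Riox2 (0.898), and all 5 were lowest in PF and below 11 FPKM in every group mean. No gene was among the 5 of more than 1 member.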

How the data were processed

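RNA-seq libraries of 9 RBL-2H3 samples were analysed. Per the study's methods and the submitters' processing notes, the authors filtered reads, aligned them with HISAT2 2.0.4 and Bowtie2 2.2.5 on build rn6, and quantified genes with RSEM 1.2.12. The annotation is not given in the sources used here. The deposited values are headed only as expression and were read as FPKM; each sample's table held 38490 gene rows, of which 20484 had no value in any sample. Read depth is unknown, so no counting interval is given; steps between low values of 4 genes (tolerance 3%) put relative depth between 0.987 and 1.02 in 8 samples.

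FPKM were tested as log2(FPKM + 1), a pseudocount of 1 that understates changes of low genes, with limma 3.58.1 in R 4.3.3 (lmFit, eBayes with trend) on the 6 samples of each comparison. Genes at 1 FPKM or more in at least 3 samples entered. P-values were adjusted by Benjamini-Hochberg over all genes tested, with a threshold of 0.05. Single values and ratios were tested with exact permutation over samples (Python 3.11.15, scipy 1.17.1). The scripts were tested on simulated data.

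Named genes were the 4 members, the 5 genes most like each by Pearson's r, and from each list the 3 most abundant and the 3 with the largest change among those passing, with other list members added for their role after their values were seen. The members and lists were chosen with earlier results of these data known. Alternatives were the pseudocount, the filter, all groups in the fit, median-ratio scaling, scaling to the mean FPKM sum, no variance trend, a replicate block, leaving out each sample, and the PF sample labelled 4 h alone; list counts under other settings were added after seeing the data.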

Additional observations from a re-analysis of the deposited data

How the results depend on the processing

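Fcer1g passed in all 3 comparisons under each alternative. In DNP against Ctrl, 2 of the 4 genes passed instead of 1 with all 3 groups in the fit and with scaling to the mean sum, Ms4a2 being added (log2 fold change 0.09 and 0.11), and Fcgr2b changed sign without Ctrl replicate 3 (-0.0033) and without DNP replicate 2 (-0.0020), within -0.0033 to 0.0306 over single left-out samples. In PF against DNP, scaling to the mean sum turned Ms4a2 to -0.0505, and the PF sample labelled 4 h alone left 1 gene passing instead of 2. In PF against Ctrl that sample alone left 1 passing instead of 3, and median-ratio scaling turned Fcgr2b to 0.0118. A lone PF sample is assumed to vary like the other group. Over single left-out samples the number passing was 1 in DNP against Ctrl, 2 in PF against DNP and 2 to 3 in PF against Ctrl. Over the same samples the spread of the group means of Fcer1a to Ms4a2 was 0.1356 to 0.1763 on the log2 scale. In PF against Ctrl, Fcer1a to Ms4a2 ranged from -0.0529 to 0.0007 and Fcer1g to Ms4a2 from -0.0008 to 0.0676, so both changed sign. For the calls lost or gained the cause was not tested.

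Same-numbered samples showed little sign of pairing in DNP against Ctrl and PF against DNP, while in PF against Ctrl their deviations all correlated positively. Correlations of different-numbered samples were not computed. Deviations were taken from each group's mean, so positive same-numbered covariances leave the different-numbered ones negative on average. The correlation of deviations of same-numbered samples over 10504 genes was -0.06, 0.04 and -0.05 in DNP against Ctrl, 0.01, -0.07 and -0.02 in PF against DNP, and 0.09, 0.18 and 0.08 in PF against Ctrl. A replicate block left 1, 2 and 3 of the 4 genes passing, as without it, and 2697, 4675 and 6009 genes overall against 3031, 5042 and 5975. Depth in reads is unknown, which limits how far differences of low genes can be read.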
